A study of Mus musculus with 2 samples.

Results

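The Hox genes encode homeodomain transcription factors and lie in 4 clusters, Hoxa to Hoxd, each numbered by paralogue group from 1 at the 3′ end to 13 at the 5′ end. The members were taken by name, as every non-control probe whose gene symbol is Hox followed by a cluster letter and a paralogue number. This gave 52 probes for 39 genes, of 56605 probes and 32631 genes on the array, with 11 genes in Hoxa, 10 in Hoxb, 9 in Hoxc and 9 in Hoxd. All 39 Hox genes of the reference gene table had at least 1 probe.

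RNA was measured in 46C cells, a mouse embryonic stem cell line whose Sox1-GFP reporter marks early neural cells, after 5 days of neural differentiation. The cells were grown as floating aggregates in a knockout serum replacement medium with no added retinoic acid named in the labels. The wild type group (WT) held the unmodified 46C line and the other group (KO-Linc1548) held 46C cells labelled as a knockout of the long non-coding RNA Linc1548. Each group was 1 one-colour Agilent array, so there are no replicates, no test was possible, and each difference compares 2 arrays rather than the genotypes. The labels do not say how the knockout was made or how many clones it stands for, and their extraction protocol speaks of ground tissue rather than of aggregates. No probe on the array carries the name Linc1548, so the targeted RNA was not checked here.

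In embryos, Hox genes are switched on one after another along each cluster, from the 3′ end to the 5′ end, and the groups active in a cell mark its position from the hindbrain to the tail. Genes at the 3′ end are used in the hindbrain and are known targets of retinoic acid, genes in the middle mark the neck and trunk, and genes at the 5′ end mark the lower trunk, the tail and the limbs. Pluripotent stem cells keep the clusters largely silent under Polycomb proteins, and differentiating cells open them from the 3′ end.

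The promoters of 5 genes are shown because the genes span the cluster positions and differ in what they hold. Hoxa2 and Hoxb1 stand for the 3′ genes that were far lower on the knockout array, Hoxa7 and Hoxd4 for genes that were higher there, and Hoxb8 for a gene of the same middle region that was lower. Each sequence is the 250 bases before the transcription start, from RefSeq on GRCm38.p6, on the gene's own strand. Capitals in Hoxa2 and Hoxb1 mark the Hox-Pbx site TGATNNAT, capitals in Hoxa7 and Hoxd4 mark the caudal site TTTATG, and capitals in Hoxb8 mark both. The positions are chr6:52164832-52165081 (minus strand) for Hoxa2, chr11:96365508-96365757 (plus strand) for Hoxb1, chr6:52218574-52218823 (minus strand) for Hoxa7, chr2:74721728-74721977 (plus strand) for Hoxd4 and chr11:96281655-96281904 (plus strand) for Hoxb8.
Hoxa2: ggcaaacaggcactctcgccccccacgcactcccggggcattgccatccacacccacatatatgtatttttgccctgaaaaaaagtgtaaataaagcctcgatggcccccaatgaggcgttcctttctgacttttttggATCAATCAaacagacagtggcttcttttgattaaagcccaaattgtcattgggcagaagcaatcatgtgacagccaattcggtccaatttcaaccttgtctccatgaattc
Hoxb1: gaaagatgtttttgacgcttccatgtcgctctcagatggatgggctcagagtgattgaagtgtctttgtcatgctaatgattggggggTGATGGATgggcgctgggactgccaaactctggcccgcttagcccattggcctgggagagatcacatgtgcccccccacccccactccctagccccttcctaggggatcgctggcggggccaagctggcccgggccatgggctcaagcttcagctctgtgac
Hoxa7: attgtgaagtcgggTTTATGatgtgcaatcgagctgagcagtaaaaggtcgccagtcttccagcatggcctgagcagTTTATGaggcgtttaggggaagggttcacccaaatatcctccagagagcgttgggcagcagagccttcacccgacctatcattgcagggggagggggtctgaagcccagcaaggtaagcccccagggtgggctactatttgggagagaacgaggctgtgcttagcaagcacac
Hoxd4: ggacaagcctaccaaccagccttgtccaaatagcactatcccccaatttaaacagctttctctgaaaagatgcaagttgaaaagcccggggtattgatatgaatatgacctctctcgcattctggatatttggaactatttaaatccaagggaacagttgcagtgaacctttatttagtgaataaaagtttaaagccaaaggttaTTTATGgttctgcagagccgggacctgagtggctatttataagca
Hoxb8: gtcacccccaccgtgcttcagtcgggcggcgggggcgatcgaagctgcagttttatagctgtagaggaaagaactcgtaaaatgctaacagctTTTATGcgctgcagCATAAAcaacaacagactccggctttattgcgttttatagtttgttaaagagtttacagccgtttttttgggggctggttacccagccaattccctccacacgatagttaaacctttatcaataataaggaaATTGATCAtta

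The promoter table held 24 promoters for 22 of the Hox genes. Searched on both strands, with overlapping matches counted, TTTATG stood in 5 of the 24 (20.8%), against 10.8% of 32851 promoters of the same length. These 5 belonged to Hoxa7, Hoxb8, Hoxd3, Hoxd4 and Hoxd11. The Hox-Pbx site TGATNNAT stood in 4 of the 24 (16.7%), against 7.68% of all promoters, and these were Hoxa2, Hoxb1, Hoxb8 and Hoxd11. In Hoxb1 the match began 162 bases before the start, and in Hoxa2 111 bases before it on the opposite strand. In Hoxd4 the caudal match began 45 bases before the start. Direct repeats of AGGTCA, the core sequence read by retinoic acid receptors, with 5, 2 or 1 bases between the repeats, stood in 0 of the 24 Hox promoters and in 3, 3 and 11 of all promoters. The median GC content was 58.6% in the Hox promoters and 52.4% in all. A match describes these letters in this window and not a bound site. Hoxa3 and Hoxb4, lower on the knockout array, and Hoxa10, higher there, held neither the caudal nor the Hox-Pbx site. The Hoxa3 promoter searched lies between those of Hoxa6 and Hoxa7. Whether the measured Hoxa3 probe reads RNA from that start was not analysed. Hoxd3, with a caudal match, stayed within 2-fold, and Hoxd11, with both kinds, was detected on neither array. Any link between the matches and the direction of a difference was not tested.

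The signals below are processed signals scaled so that both arrays share 1 75th percentile, 750.6, and each ± is the scanner software's own error for a spot, not a replicate error. A probe counts as detected where the software calls it well above background, and as measured where this holds on both arrays. Before scaling the wild type array had a 75th percentile of 863.7 and the knockout array one of 652.3. Probes printed in several spots varied by an SD of 0.06 (wild type) and 0.07 (knockout) on the log2 scale. This SD covers detected spots within 1 array and holds no variation between arrays, cultures or clones. The software's own log2 error was larger for dim Hox probes, such as 0.33 for the measured Hoxa10 probe. Signals of different probes are not compared as amounts of RNA, since each binds its target differently.

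Cell type markers differed widely between the arrays. Over all measured genes, 8.82% were at least 2-fold lower on the knockout array and 11.5% at least 2-fold higher. All 4 neural progenitor markers (Sox1, Pax6, Nes, Hes5) were at least 2-fold lower on the knockout array, and the summed signal of their measured probes was 60328 against 4443. All 3 neuronal markers (Tubb3, Dcx, Elavl3) were at least 2-fold lower, with summed signals of 16650 and 3965. All 4 naive pluripotency markers (Zfp42, Esrrb, Klf4, Tbx3) were at least 2-fold higher on the knockout array, with summed signals of 6892 on the wild type and 73723 on the knockout array, and so were all 3 primed epiblast markers (13222 and 50972), of which Pou3f1 (log2 1.22) came inside 2-fold with centring on the spike-in controls (0.85). Of the mesoderm and caudal markers Cdx2 was higher, T and Tbx6 were within 2-fold and Mesp1 was detected on neither array. Of the endoderm markers Foxa2 was 3.68-fold lower (log2 -1.88) while Sox17 and Gata6 were within 2-fold. The summed signals were 22942 and 7038, of which Foxa2 alone gave 21970 and 5976. Such sums add probes that bind differently and can rest mostly on 1 of them. Hes5 gave 42256 of the neural progenitor sum on the wild type array. Fewer cells of a type and less RNA per cell cannot be told apart in such bulk RNA, and the part of cell makeup in the Hox differences was not tested.

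The Hox genes differed between the arrays in both directions. Lower values on the knockout array lay mainly at the 3′ end of Hoxa and Hoxb, and higher values lay further 5′ in Hoxa and in Hoxc and Hoxd. Of the 39 genes, 18 were measured on both arrays, against 57.1% of all genes, 2 were detected on the wild type array only (Hoxa4 and Hoxa5), 4 on the knockout array only (Hoxa9, Hoxc8, Hoxd8 and Hoxd9), and 15 on neither. Among the 18, 7 were at least 2-fold lower on the knockout array (Hoxa2, Hoxa3, Hoxb1, Hoxb2, Hoxb3, Hoxb4 and Hoxb8), against 8.82% of the 18622 measured genes. A further 5 were at least 2-fold higher (Hoxa7, Hoxa10, Hoxc6, Hoxc9 and Hoxd4), against 11.5% of the measured genes. The remaining 6 stayed within 2-fold. The median log2 difference, knockout minus wild type, was 0.21 over the 18 Hox genes and 0.10 over all measured genes, so the centre of the set did not show the spread from -4.71 in Hoxa2 to 2.12 in Hoxc9.

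Detection among Hox genes lay somewhat below that of the whole array. On the wild type array 20 of 39 Hox genes were detected, against 61.9% of all genes, and on the knockout array 22, against 60% of all genes. The share detected on neither array was 15 of 39, against 35.2% of all genes. Detection on the knockout array alone held for 4 of 39 genes, against 2.89% of all genes, and on the wild type array alone for 2, against 4.82%.

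**Figure D1:**
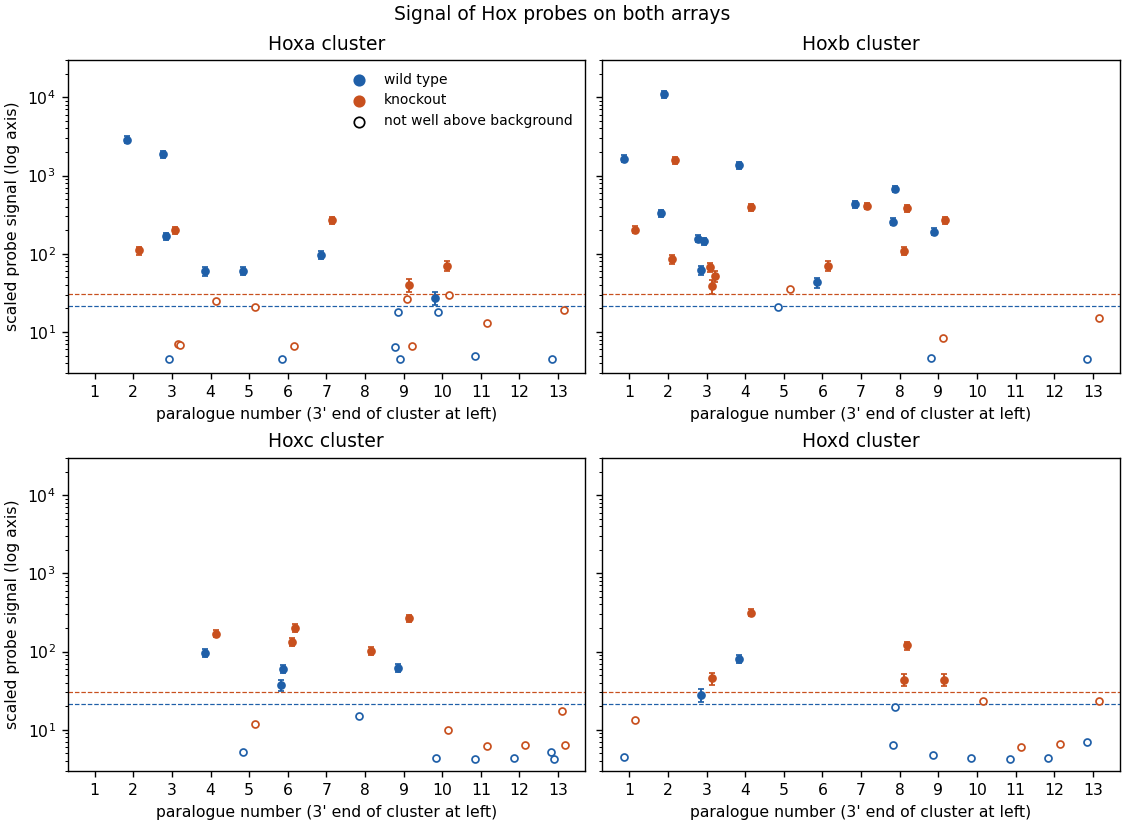
Scaled signal of Hox probes on a log axis against their paralogue number, with 1 panel per cluster and not every gene drawn. Blue points are the wild type array, orange points the knockout array, and open points are not well above background. Bars are the software's spot error for detected probes, and dashed lines give the lowest detected signal of each array, 21.3 and 30.5. Where both points of a probe are filled, wild type lies above knockout at the left of Hoxa and Hoxb, and knockout above wild type in Hoxc and Hoxd. Probes with open points on both arrays carry no direction.

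Paralogue groups 1 to 3, the 3′ genes of the hindbrain, held 8 genes. Of these, 7 were measured, 5 were at least 2-fold lower on the knockout array and 0 were at least 2-fold higher, and their median log2 difference was -2.37. In groups 4 to 8, 15 genes, 8 were measured, 3 were higher by at least 2-fold and 2 lower by at least 2-fold, with a median of 0.76. In groups 9 to 13, 16 genes, 3 were measured, 2 were higher by at least 2-fold and 0 lower by at least 2-fold, with a median of 1.37. The shares among all measured genes, to set beside each group, were 8.82% lower and 11.5% higher by at least 2-fold. Across the 18 measured genes the log2 difference rank-correlated with the paralogue number at rho 0.63 (Pearson r = 0.62). Within the 8 measured Hoxb genes rho was 0.81 (r = 0.83). These correlations describe genes on the same pair of arrays, which are not independent, and carry no test. Probe signal also differed along this axis. On the wild type array the measured probes of the 2-fold higher genes read 27.4 (Hoxa10) to 97.7 (Hoxa7). Those of Hoxa2, Hoxa3, Hoxb1 and Hoxb4, all lower, read 1346 to 2886. Among the other lower genes Hoxb2 read 328 and 10904, Hoxb8 258 and 677, and Hoxb3 61.7 to 157. The part of signal level in the correlations was not tested.

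**Figure D2:**
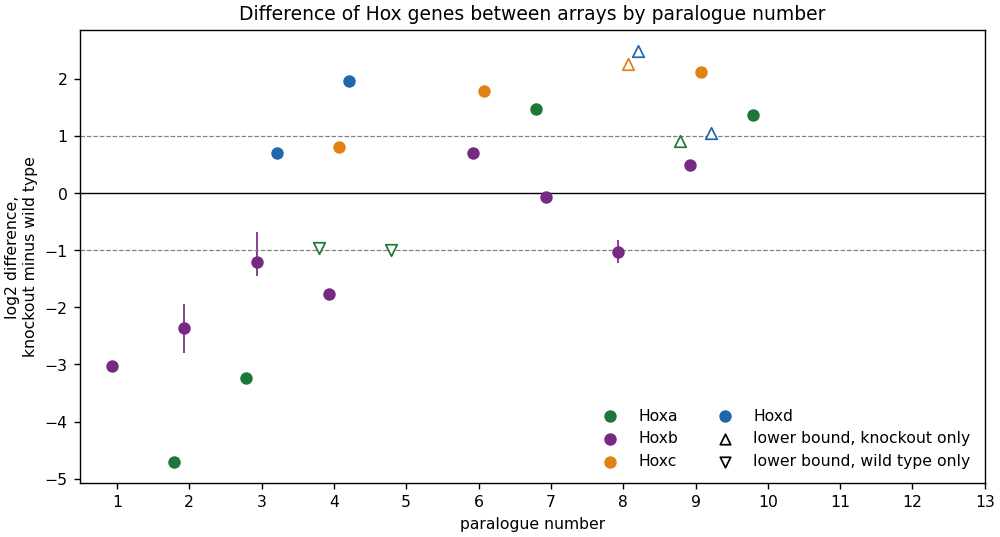
Log2 difference, knockout minus wild type, of Hox genes against their paralogue number, coloured by cluster, with not every gene drawn. Filled points are genes measured on both arrays, vertical lines span their measured probes where there is more than 1, open triangles are lower bounds for genes detected on 1 array, and dashed lines mark 2-fold. Points at groups 1 to 3 lie mostly below 0 and reach -4.71, while the points at groups 9 and 10 lie above 0.

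Clusters differed in counts and direction, but the cluster values mix positions, since Hoxc holds no genes of groups 1 to 3. Hoxb was the best detected, with 8 of 10 genes measured, 5 at least 2-fold lower, 0 at least 2-fold higher and a median log2 difference of -1.12. Hoxa held both directions, with 2 of its 5 measured genes higher by 2-fold or more and 2 lower by as much. In Hoxc all 3 measured genes were higher on the knockout array, 2 of them at least 2-fold, with a median of 1.78. In Hoxd both measured genes were higher, 1 of them at least 2-fold, with a median of 1.33. The other, Hoxd3, read close to the lowest detected signals. Over all measured genes 56.7% were higher on the knockout array by any amount and 43.3% lower. By at least 2-fold, 11.5% were higher and 8.82% lower. At the same position, directions were mixed in some groups. In group 4, Hoxb4 was lower (log2 -1.76) while Hoxc4 (0.81, within 2-fold) and Hoxd4 (1.97) were higher. Hoxa4 was detected on the wild type array only. In group 3, Hoxa3 and Hoxb3 were lower and Hoxd3 was higher, within 2-fold. In group 7, Hoxa7 was higher and Hoxb7 was at -0.08. Directions were shared by Hoxa2 and Hoxb2 (lower), and by Hoxb6 with Hoxc6 and Hoxb9 with Hoxc9 (higher).

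Among the Hoxa genes, whose probes described here span chromosome 6 from 52112595 to 52209039 on mm9, Hoxa2 and Hoxa3 were far lower on the knockout array. Hoxa2, which sets segment identity in the hindbrain and the pharyngeal arches, read 2886 ± 289 in the wild type and 110 ± 12.9 in the knockout, the order used for every pair of signals here. This was 26.2-fold lower on the knockout array (log2 -4.71, and -4.10 with normexp, another background correction). Hoxa3, needed for the thymus and parathyroid glands, had 3 probes. The probe measured on both arrays read 1874 ± 187 and 199 ± 21.1, 9.42-fold lower (log2 -3.24). The second read 168 ± 17.6 on the wild type array and was not well above background on the knockout array, which bounds it at least 5.52-fold lower, and the third, whose position lies some distance upstream at 52149150 to 52149208, was not well above background on either array.

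Hoxa4 and Hoxa5, neck and upper trunk genes, were detected on the wild type array alone. Hoxa4 read 59.5 ± 7.42 and 24.8 ± 6.94, which is at least 1.95-fold lower on the knockout array. Hoxa5, which also acts in lung development, read 60.9 ± 7.47 and 21.0 ± 6.77, at least 2.00-fold lower after rounding and just short of the 2-fold limit. A bound sets the detected signal against the lowest detected signal of the other array, or against the probe's own signal where that is higher. Neither gene is counted as past 2-fold.

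From Hoxa7 onwards the Hoxa values ran the other way. Hoxa7, a trunk gene whose promoter above holds a pair of TTTATG matches, read 97.7 ± 10.7 and 271 ± 27.9, 2.78-fold higher (log2 1.47). Hoxa10, known for lumbar patterning and the uterus, had 1 measured probe, at 27.4 ± 5.15 and 70.6 ± 9.47, 2.58-fold higher (log2 1.37). That wild type value lay close to the lowest detected signal of its array, 21.3, and the second Hoxa10 probe was detected on neither array. Centring on the spike-in controls gave 0.99 for Hoxa10, and normexp gave 0.77, both inside the 2-fold limit. Hoxa9, a blood stem cell and trunk gene, was detected through 1 of 3 probes on the knockout array only, at 17.9 ± 4.77 and 40.1 ± 7.73, at least 1.88-fold higher.

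The Hoxb probes, on chromosome 11 from 96057854 to 96228510, showed the longest run of lower values. Hoxb1, which marks a single segment of the hindbrain and keeps itself on through Hox-Pbx sites, read 1653 ± 165 and 204 ± 21.4. It was 8.11-fold lower on the knockout array (log2 -3.02). Hoxb2, known for facial motor neurons and for direct control by Egr2, had a probe on its own strand at 10904 ± 1090 and 1562 ± 156, 6.98-fold lower (log2 -2.80). A second probe under the name Hoxb2 lies on the opposite strand, at 96211860 to 96211919, and read 328 ± 33.1 and 85.6 ± 10.7 (log2 -1.94). The gene value, the median of both, was -2.37.

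Hoxb3, expressed in the hindbrain and in blood progenitors, had 3 measured probes, and all were lower on the knockout array. They read 157 ± 16.3 and 67.8 ± 9.42, 61.7 ± 7.67 and 38.5 ± 7.79, and 144 ± 15.0 and 52.4 ± 8.33, for log2 differences of -1.21, -0.68 and -1.46. Hoxb4, used to expand blood stem cells, read 1346 ± 135 and 397 ± 40.3, 3.39-fold lower (log2 -1.76). The normexp correction moved Hoxb3 to -0.60, inside 2-fold.

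Beyond Hoxb4 the Hoxb differences were small, with Hoxb8 as the exception. Hoxb6, a trunk gene, read 43.2 ± 6.19 and 70.5 ± 9.63 (log2 0.71, and 0.33 with spike-in centring). Hoxb7 read 432 ± 43.5 and 410 ± 41.6 (log2 -0.08). Hoxb8, a trunk gene also used in myeloid progenitors, read 258 ± 26.2 and 110 ± 12.8 on 1 probe and 677 ± 67.9 and 383 ± 38.9 on the other. These are log2 differences of -1.23 and -0.82, which give a gene value of -1.03 and put it barely past 2-fold. The brighter probe alone, or normexp (-0.76), left it inside 2-fold. Hoxb9, of the thoracic region, read 191 ± 19.7 and 269 ± 27.7 (log2 0.49), while its other probe was detected on neither array.

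The Hoxc probes lie on chromosome 15 from 102759058 to 102867272, in a cluster with no genes of groups 1 to 3. Hoxc4 read 96.7 ± 10.7 and 170 ± 18.3, a log2 difference of 0.81. Hoxc6, which marks the forelimb level of the spinal cord, read 37.4 ± 5.89 and 133 ± 14.8 on 1 probe and 60.4 ± 7.58 and 201 ± 21.3 on the other, so that both gave a similar difference (log2 1.83 and 1.74). The gene value of 1.78 became 1.09 with normexp. Hoxc8, a motor neuron gene of the same region, read 14.9 ± 4.58 and 102 ± 12.1, was detected on the knockout array only, and was at least 4.81-fold higher there. Hoxc9, which sets the thoracic motor column by repressing brachial genes, read 61.6 ± 7.56 and 268 ± 27.6, 4.35-fold higher (log2 2.12, and 1.42 with normexp).

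The Hoxd probes lie on chromosome 2 from 74509248 to 74603059. Hoxd3 read 28.2 ± 5.40 and 45.6 ± 8.26, a log2 difference of 0.69, and 0.32 with spike-in centring. Both signals lay close to the lowest detected signals of their arrays, 21.3 and 30.5. Hoxd4, known to answer to retinoic acid, read 80.7 ± 9.25 and 316 ± 32.2, 3.91-fold higher (log2 1.97). Among the promoters shown above, its TTTATG match lay nearest to the start. Hoxd8 was detected on the knockout array only, by both of its probes. They read 6.46 ± 4.40 and 43.6 ± 7.76, and 19.6 ± 4.80 and 120 ± 13.6, at least 2.05-fold and 5.62-fold higher. Hoxd9, a gene of the lower trunk and limb, read 4.70 ± 4.71 and 43.9 ± 8.15, at least 2.06-fold higher.

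The 15 Hox genes detected on neither array were Hoxa6, Hoxa11, Hoxa13, Hoxb5, Hoxb13, Hoxc5, Hoxc10, Hoxc11, Hoxc12, Hoxc13, Hoxd1, Hoxd10, Hoxd11, Hoxd12 and Hoxd13. Of these, 11 belong to groups 9 to 13, which pattern the limb and tail. Their 16 probes read 4.24 to 21.0 in the wild type and 6.09 to 35.0 in the knockout. Signals at this level carry no direction, since probes that the software does not call positive and significant had medians of 4.46 (wild type) and 6.56 (knockout), a log2 gap of 0.56. By that looser call, 28 Hox genes passed for the wild type, against 75.3% of all genes, and 34 for the knockout, against 73.8%. The 6 genes called on the knockout array only were Hoxa13, Hoxb13, Hoxc10, Hoxd1, Hoxd9 and Hoxd10, against 3.46% of all genes, and 0 Hox genes were called on the wild type array only, against 4.92%. Hoxd10 read 4.42 and 23.5, and Hoxa13 read 4.50 and 19.1, all below the lowest detected signals of 21.3 and 30.5. Other undetected genes showed a smaller gap, such as Hoxd11 at 4.24 and 6.09 and Hoxc12 at 4.39 and 6.41.

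Other probes that lie inside the clusters, most of them for non-coding or antisense RNA, also differed in both directions. There were 34 such probes, of which 16 were measured, 2 were detected on the wild type array only, 3 on the knockout array only and 13 on neither. Of the 16, 4 exceeded 2-fold upwards and 4 downwards on the knockout array, against 10.5% and 8.44% of all measured probes. In the 3′ part of Hoxa, Hoxaas2, an antisense RNA at Hoxa3, read 981 ± 98.2 and 155 ± 17.0 (log2 -2.66). Gm15050, a non-coding transcript between Hoxa3 and Hoxa4, read 1424 ± 142 and 292 ± 29.9 (log2 -2.29). The transcript AK039882, between Hoxa4 and Hoxa5, read 148 ± 15.5 and 64.6 ± 9.29 (log2 -1.19, and as near 0 as -0.55 under another scaling or background correction). Beside Hoxb3 on the opposite strand, the transcript BE847805 read 8450 ± 845 and 1008 ± 101 (log2 -3.07).

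Further towards the 5′ end the named non-coding RNAs were higher or within 2-fold. Hoxaas3, an antisense RNA between Hoxa6 and Hoxa7, read 51.3 ± 6.77 and 249 ± 25.7 on its measured probe (log2 2.28, and as low as 1.47 under another scaling or background correction). Mira, a non-coding RNA beside it, read 144 ± 15.1 and 200 ± 21.2 (log2 0.47). Hoxa11os, the antisense partner of Hoxa11, was detected on the knockout array only by both probes, at 20.1 ± 4.79 and 66.5 ± 9.22 and at 12.955 ± 4.92 and 60.9 ± 9.23, at least 3.12-fold and 2.86-fold higher. Hoxa11 itself was detected on neither array.

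In Hoxb, the pair of Hoxb5os probes gave log2 differences of 0.78 and 0.90. AK085288, a transcript 5′ of Hoxb9, read 36.8 ± 6.04 and 218 ± 22.9 (log2 2.57, and as low as 1.53 under another scaling or background correction), and Gm53, between Hoxb9 and Hoxb13, was detected on the knockout array only, at 5.38 ± 4.59 and 73.3 ± 9.91, at least 3.44-fold higher. A non-coding locus 3′ of Hoxb5, with its probe at 96175970 to 96176029, read 69.3 ± 8.29 and 154 ± 16.8 (log2 1.16, and 0.78 under another scaling). In Hoxd, AI448005, beside Hoxd4, read 175 ± 18.0 and 575 ± 57.8 (log2 1.72), and Haglr, the antisense RNA at Hoxd1 and Hoxd3, read 111 ± 12.0 and 102 ± 12.1 (log2 -0.12, turning to 0.09 under another scaling or background correction). Hottip, HOTAIR and Hoxd3os1 were detected on neither array.

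**Figure D3:**
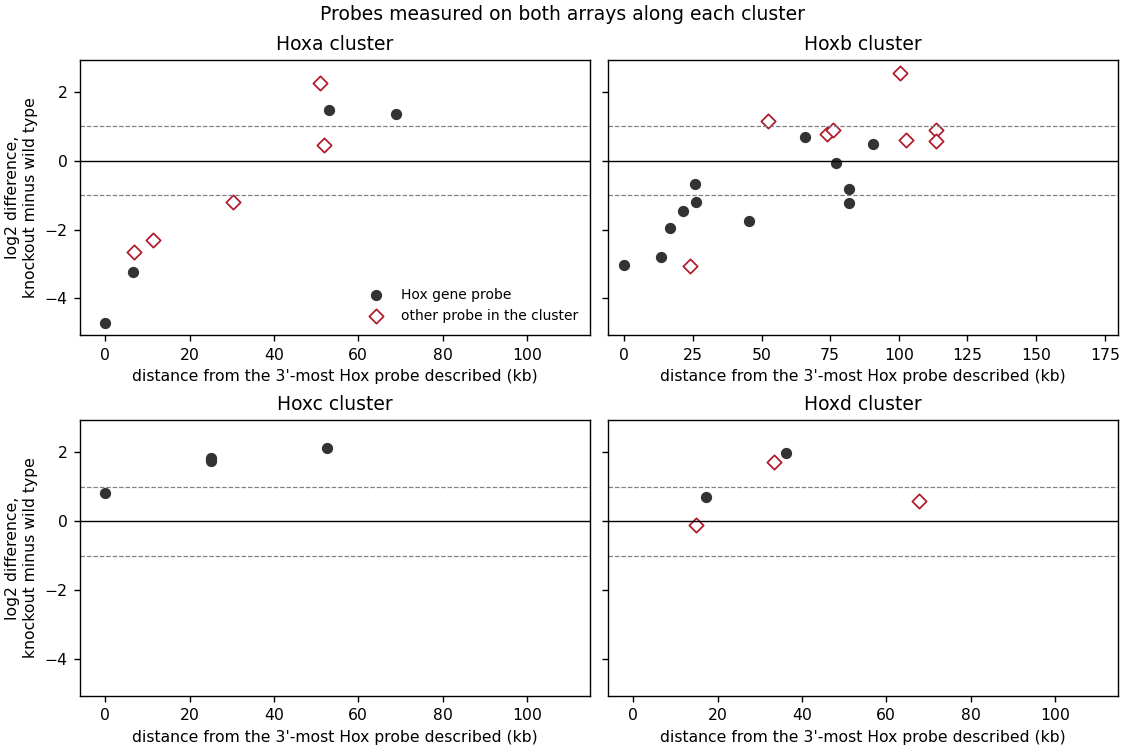
Log2 difference, knockout minus wild type, of probes measured on both arrays against their distance from the 3′-most Hox probe described here, detected or not, with 1 panel per cluster. Hox probes and the other probes inside the clusters are drawn apart, and not every gene is drawn. In Hoxa, Hoxa2, Hoxa3, Hoxaas2 and Gm15050 lie below -2, and Hoxa7, Hoxaas3 and Hoxa10 lie above 1.

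Hox proteins bind DNA with TALE homeodomain partners of the Pbx, Meis and Pknox families. All 9 listed partners were measured. Of these, 4 were at least 2-fold lower on the knockout array, against 8.82% of all measured genes. At least 2-fold higher were 0, against 11.5%. Meis1 was lower by 5.47-fold (log2 -2.45 over 3 probes), Meis2 by 5.49-fold (log2 -2.46 over 5 probes), Meis3 by 4.69-fold (log2 -2.23, and -1.62 with normexp) and Pknox2 by 6.29-fold (log2 -2.65). Pbx2 (-0.53), Pbx3 (-0.69) and Pbx4 (-0.17, and 0.02 with normexp) lay within 2-fold, though Pbx3 reached -1.07 with spike-in centring. Pknox1 was at 0.47.

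Caudal genes and posterior signals switch on the middle and 5′ Hox genes in the trunk. Of the 7 listed, 5 were measured, and 3 were at least 2-fold higher on the knockout array, against 11.5% of all measured genes. Cdx1, a caudal homeobox factor, was 16.8-fold higher (log2 4.07, and 2.89 with normexp), Cdx2 4.64-fold higher (log2 2.21) and Fgf8, a signal of the tail bud and other sites, 5.41-fold higher (log2 2.44). Wnt3a was at 0.61 and T at -0.61, which turned to 0.42 with no filter on dim probes, where its undetected second probe enters. Gdf11, a signal at the trunk to tail switch, was detected on the wild type array only and was at least 2.91-fold lower on the knockout array, and Cdx4 was detected on neither.

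Retinoic acid genes did not share a direction. Of 7 listed, 6 were measured. Rarg, a receptor abundant in stem cells, was 3.33-fold higher (log2 1.73), and Cyp26b1, an enzyme that breaks retinoic acid down and is expressed in the hindbrain, was 6.08-fold lower (log2 -2.60). Aldh1a2, which makes retinoic acid, was at 0.60, and Rarb, itself a retinoic acid target, at -0.94. With spike-in centring Rarb (-1.32) and Cyp26a1, another degrading enzyme (-0.72 by the 75th percentile and -1.09 there), passed 2-fold. Cyp26c1 was detected on the wild type array only, at least 1.48-fold lower on the knockout array.

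Egr2, a hindbrain segment factor that controls Hoxb2 and Hoxa2, was 4.44-fold lower (log2 -2.15). Of the 8 chromatin regulators, all measured, 3 Polycomb members were at least 2-fold lower, namely Bmi1 (log2 -1.63), Ring1 (log2 -1.48) and Cbx2 (log2 -1.25). At least 2-fold higher were 0. Among all measured genes 8.82% were lower and 11.5% higher by that limit. Suz12 was the highest of the 8 at 0.97, with Eed at 0.69 and Ezh2 at -0.16. Kmt2a, which keeps Hox genes active, was at 0.04 (-0.02 with normexp). Its measured probes disagreed, at -0.49 for the brightest and 0.57 for the other.

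**Figure D4:**
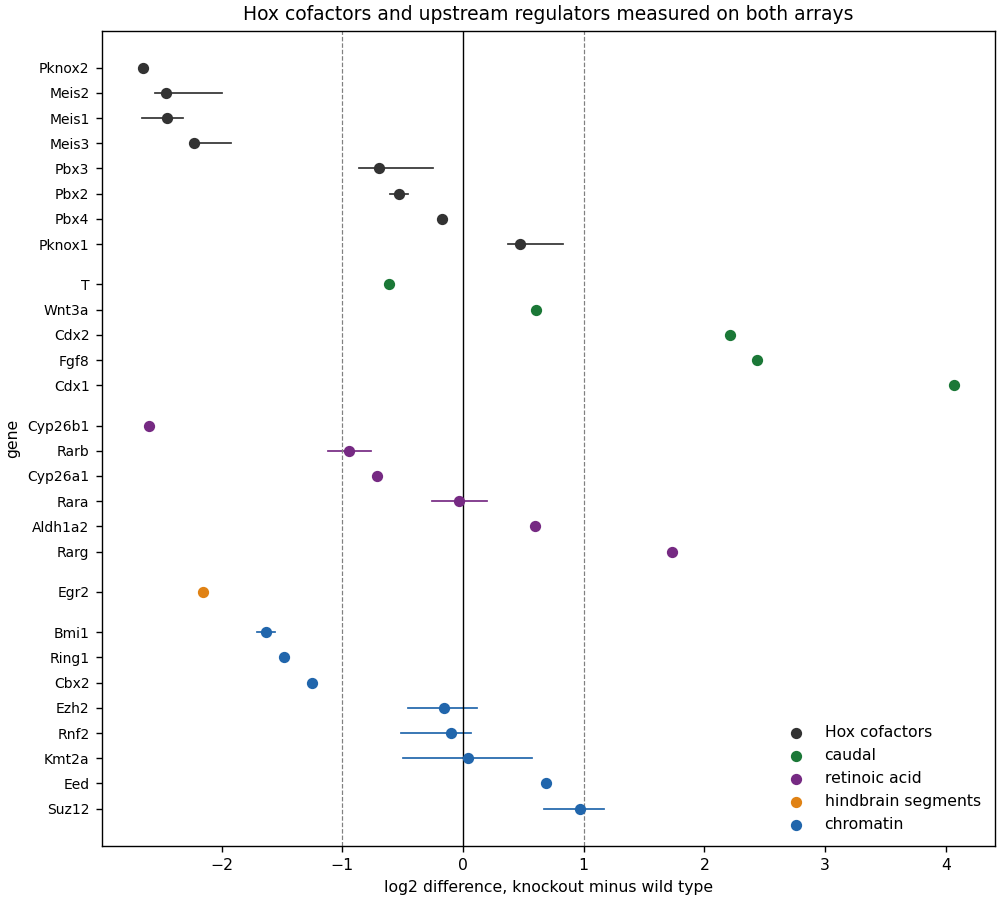
Log2 difference, knockout minus wild type, of measured partner and upstream genes, grouped by list with not every gene drawn, with lines spanning the probes of a gene and dashed lines at 2-fold. The Meis genes and Pknox2 lie below -2 and Cdx1, Cdx2 and Fgf8 lie above 2.

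How the arrays are scaled moved all differences together but reversed none of the 18 measured Hox genes. Centring on the spike-in controls, in place of the 75th percentile, lowered every log2 difference by 0.38, and the split over all genes went from 11.5% higher and 8.82% lower to 7.52% higher and 15.7% lower. Under it 4 Hox genes lay above the 2-fold limit and 7 below it. In 3473 transcripts read by probes 500 or more bases from each other, the knockout minus wild type log2 difference was compared between the probes. That of the 3′ probe minus that of the 5′ probe had a median of -0.17. The part of this shift in the Hox differences was not tested. The array, the culture and the genotype cannot be told apart.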

How the data were processed

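The labels describe total RNA labelled with Cy3 and hybridised to 1 array per group, 2 arrays in all. Per the file headers and the submitters' processing notes, the authors read each array with Agilent Feature Extraction 10.7.1.1, and the deposited values are spot intensities on a linear scale with the software's background and detection flags. Here the processed signal of non-control spots was used after outlier spots (173 wild type, 155 knockout) were left out. Spots of a probe were averaged, log2 signals were set to a common 75th percentile, and a gene took the median difference of its probes well above background on both arrays. No probe was saturated (0). Genes exclude 4450 probes of long intergenic RNA loci and 381 without a name. The limit was 2-fold, with no test, and the number of arrays limits the precision. All Hox genes are in the counts, with values for those detected on either array, and a few genes of the lists are not reported here. Of the other lists, genes past 2-fold, those detected on 1 array and the highest and lowest 2 by value are named, and a few more were named after their values were seen. Members and lists were chosen with earlier results of these data known. Names are those of the files, and 46 of the 52 Hox probes matched a RefSeq accession (GRCm38.p6), with 0 differing in symbol. Probe positions are those in the files, on mm9, and exon placement was not analysed here. No Hox probe shared a run of 25 bases with a probe of another name (0). Alternatives covered scaling, normexp (limma 3.58.1 in R 4.3.3, offset 50), filters, fold limits, probe choice and names, and leaving out the opposite-strand Hoxb2 probe, and counts by paralogue groups under these were chosen after seeing the data. Scripts (Python 3.11.15, numpy 2.4.6, pandas 2.3.3, statsmodels 0.14.6, matplotlib 3.10.9) were tested on simulated data.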

Additional observations from a re-analysis of the deposited data

How the results depend on the processing

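The 18 measured Hox genes kept their sign under all alternatives run on them, and 3 crossed the 2-fold limit under at least 1 of them (Hoxa10, Hoxb3 and Hoxb8, with values given beside each gene). The counts depend mainly on the filter on dim probes. With no filter 39 Hox genes entered the counts, against 18 in the main run and 10 with the stricter filter. That filter dropped Hoxa2, Hoxa10, Hoxb3, Hoxb6, Hoxc6, Hoxc9, Hoxd3 and Hoxd4, so the sign of these genes was not checked under it. The 5 genes at least 2-fold higher on the knockout array became 18 with no filter, where signals near the floor enter, 1 with a filter at 4 times the lowest detected signal, 8 at a 1.5-fold limit and 1 at a 4-fold limit. The 7 lower genes became 4 with the stricter filter and 4 at a 4-fold limit. In groups 1 to 3 the 5 lower genes became 3 with the stricter filter and the 0 higher genes became 1 with no filter. In groups 4 to 8 the 3 higher genes became 6 with no filter and 1 with the stricter filter, and the 2 lower genes became 4 with no filter and 1 with normexp, the stricter filter or the brightest probe. In groups 9 to 13 the 2 higher genes became 1 with spike-in centring, 1 with normexp, 11 with no filter and 0 with the stricter filter. The median of 0.21 became 0.10 with median centring, -0.17 with spike-in centring, 0.74 with no filter and -0.61 with the stricter filter, so its sign is not settled. The 22 genes detected on the knockout array became 34 by the positive and significant call. The cause of these shifts was not tested beyond the change in genes counted. No paired analysis was possible because each group is 1 array and the labels carry no replicate numbers. Signal over background limits the 15 undetected genes, whose levels carry no direction.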

Other observations

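Genes just outside the clusters mostly differed less than the Hox genes inside them. Of 12 listed, 11 had probes, and all 11 were measured, with a median log2 difference of -0.32, knockout minus wild type. Evx1, a homeobox gene at the 5′ end of Hoxa, was 2.44-fold lower on the knockout array (log2 -1.29, and -0.67 with normexp), opposite in sign to Hoxa7 and Hoxa10. Its relative Evx2, beside Hoxd13, was at -0.43, and at 0.09 by its brightest probe alone. Ttll6, beside the 5′ end of Hoxb, was 2.63-fold higher (log2 1.40, and 0.68 with normexp). Skap1, beyond the 3′ end of Hoxb, was 2.21-fold higher (log2 1.15, but 0.77 with spike-in centring and 0.88 with normexp). The other neighbours ran from -0.67 in Smug1 (-1.05 with spike-in centring) to 0.43 in Hibadh. Mtx2 at 0.19 turned to -0.19 with spike-in centring, and Skap2 at -0.42 turned to 0.06 by its brightest probe alone.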
